A study of Mus musculus with 10 samples.

Results

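The genes described here encode the proteins of the cytosolic ribosome. They were chosen by name from the gene count table: every protein-coding gene whose symbol starts with Rpl or Rps followed by a digit, together with Rplp0, Rplp1, Rplp2 and Rpsa, and without the Rps6k kinases and symbols holding -ps. This gave 86 of the 54532 genes in the table. Of them, 51 are named for the large (60S) subunit and 33 for the small (40S) subunit, and 2 carry such a name without being subunits: Rps19bp1 encodes a binding partner of RPS19, and Rpl7l1 a factor of the pre-ribosome. The rule reads names and biotypes only, but the group was proposed with fold changes of these same mice known, so its values are given as a description and support nothing further.

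The libraries came from the brains of 10 Slc20a2-HO mice, homozygous for the tm1a(EUCOMM)Wtsi allele of the phosphate transporter gene Slc20a2 and bred as littermates by crossing heterozygotes. Such mice calcify the brain and serve as a model of primary familial brain calcification. Since all 10 mice carry the allele, no wild-type level stands beside any value below. The FTY720 group held 6 mice that received FTY720 (fingolimod, a modulator of sphingosine-1-phosphate receptors) at 0.5 mg/kg in DMSO by intraperitoneal injection, 3 times a week for 12 weeks from an age of 1.5 months. The placebo group held 4 mice injected with DMSO alone on that schedule. RNA was taken from part of each perfused brain while the other part was fixed, and each library came from 1 mouse. The paper describes no difference in this sampling between mice. The mouse names carry a digit, 1 or 3, whose meaning is not given in the sources used here. The meaning of the first digit after the hyphen, called the leading digit below, is not given either. Digit 1 stood in the names F1-622, F1-624, F1-918 and P1-623, and digit 3 in F3-609, F3-612, F3-908, P3-612, P3-904 and P3-907, where F marks FTY720 and P placebo. Only 1 of the 4 digit 1 mice received placebo, so treatment and digit are unequally mixed.

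The digit went with the brain region in the tissue. Gabra6, a GABA receptor subunit of cerebellar granule cells, lay between 0.0590 and 0.240 CPM (counts scaled to a common library size) in the digit 1 mice and between 130 and 172 CPM in the digit 3 mice. In the comparison of digits, 12 of 16 granule cell markers and 9 of 10 Purkinje cell markers were higher, and 13 of 14 forebrain markers and 7 of 9 microglia markers were lower, in digit 3 mice at an adjusted p under 0.05, and 1 granule cell marker was lower. Over all genes tested, 13.9% were called higher and 14.4% lower in that comparison. The summed level of the granule cell markers was 1442 to 1614 CPM in digit 1 mice and 2522 to 2772 CPM in digit 3 mice, and that of the forebrain markers 963 to 1069 and 584 to 802 CPM. No granule cell marker was at 0 counts over either set of mice, whereas all 6 hindbrain Hox genes were at 0 counts in every digit 1 mouse and summed to 8.11 to 14.3 CPM in the digit 3 mice. The digit and the region sampled cannot be told apart in these data. In such bulk tissue, fewer cells of a type and less RNA per cell cannot be told apart either. Column totals ran from 14772745 to 18303981 counts.

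Every ribosome carries 1 copy of almost all of these proteins, the P-stalk proteins RPLP1 and RPLP2 being the known exception, so their genes are usually expressed at similar and high levels. Their mRNAs start with a C followed by a run of pyrimidines, the 5′ terminal oligopyrimidine (TOP) tract, through which the kinase complex mTORC1 and the RNA-binding protein LARP1 set their translation. Most are short and many host small nucleolar RNAs in their introns, and their retrotransposed copies make up a large share of mammalian processed pseudogenes. In brain, ribosomal protein mRNAs are also found in neurites, astrocyte processes and synapses.

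The start sites shown here belong to the genes with the largest and the smallest differences between digit 3 and digit 1 mice, plus Rps6, whose protein is the phosphorylated target of the S6 kinases. Each window holds 15 bases before and 15 bases from the start annotated by RefSeq (GRCm38.p6), written 5′ to 3′ along the gene, and the capitals mark its longest run of C or T. Rps19 has 3 and Rps27l 2 annotated starts, and the one with the longest run is shown. The genes with the largest decreases come first:
Rps15, chr10:80292416-80292445, plus strand: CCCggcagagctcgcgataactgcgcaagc
Rps28, chr17:33824548-33824577, minus strand: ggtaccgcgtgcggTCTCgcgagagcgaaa
Rpl41, chr10:128549154-128549183, minus strand: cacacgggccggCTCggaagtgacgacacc
Rpl38, chr11:114668565-114668594, plus strand: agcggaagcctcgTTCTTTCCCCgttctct
Rps19, chr7:24884898-24884927, plus strand: gagggagcggggtgtggagggCTCTCCCac
Those that changed least follow, and Rps6 closes the set:
Rps15a, chr7:118116133-118116162, minus strand: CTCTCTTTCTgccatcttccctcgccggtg
Rps27l, chr9:66946071-66946100, plus strand: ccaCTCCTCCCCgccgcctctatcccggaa
Rpl22l1, chr3:28805493-28805522, plus strand: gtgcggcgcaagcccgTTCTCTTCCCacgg
Rps27rt, chr9:114982725-114982754, minus strand: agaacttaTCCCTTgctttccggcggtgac
Rpl24, chr16:55966260-55966289, plus strand: agaaagCTgttgctaggaaacagactgggc
Rps6, chr4:86857353-86857382, minus strand: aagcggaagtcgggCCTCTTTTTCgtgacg

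Of the 86 genes, 66 had a start in the RefSeq table, and a gene with several starts was counted below where any of them matched. A start at C with only C or T at the next 4 bases was present in 14 of the 66 (21.2%) and in 3.01% of all 27025 genes of the table. The letters CTTTC stood within 10 bases of the start in 12 of the 66 (18.2%) against 2.91% of all genes, and CTCTT likewise in 12 of the 66 (18.2%) against 2.95%, both read on the gene's strand only and free to overlap each other. A run of at least 8 pyrimidines within 15 bases of the start was present in 27 of the 66 (40.9%) and in 13.9% of all genes. Among the 69 mitochondrial ribosomal protein genes in the table, none had a start at C with 4 pyrimidines after it and 9 had the long run. These are matches of letters, and the annotated start of a gene may lie some bases away from the start used in brain. The 14 genes with the pyrimidine start and the 48 other tested genes with a window had median log2 fold changes of −0.59 and −0.58 between digit 3 and digit 1 mice, so both sets of starts occurred among large and small decreases.

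Compared per length, as the authors' FPKM values (counts scaled by gene length and library size), these genes stood far above the typical gene. Their median of the mean FPKM over the 10 mice was 66.5, against 5.45 for the 14784 tested protein-coding genes, and 28 of the 86 had a mean over 100. In the large subunit the highest levels belonged to Rplp1 (837 ± 256 FPKM, SD, n = 10), Rpl4 (241 ± 50.4), Rpl19 (220 ± 64.7), Rpl36 (211 ± 92.0) and Rpl41 (207 ± 91.7). RPLP1 is an acidic protein of the stalk that recruits elongation factors, and RPL41 is the smallest protein of the ribosome. In the small subunit Rps3a1 (372 ± 87.7 FPKM), Rps15 (360 ± 152), Rps14 (192 ± 61.3), Rps29 (157 ± 53.9) and Rps6 (157 ± 39.3) led. Rplp1 stood above all other genes of the group by more than its spread over mice. FPKM divided the counts by the gene length listed in the deposited table. That length was equal to the summed length of all GENCODE M21 exons in 82 of the 86 genes and differed from it in Rpl17, Rps14, Rps18 and Rps28, named after their values were seen. It had a median of 1730 bases while the annotated mRNA with the longest coding sequence had a median of 1077 bases, so the FPKM of a gene with long, rarely used exons is low. Rps15a, with a gene length of 6270 bases, had 24.3 ± 3.54 FPKM while its level in CPM, 130 to 208, was above that of Rps29 in every mouse.

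Several members stood at the floor. Rpl10l had 0 counts in every mouse, and Rpl39l (11 counts in all 10 mice together), Rpl3l (66) and Rpl36al (70) were too low for the filter on low counts, so 82 of the 86 genes were tested. RPL10L and RPL39L replace their X-linked relatives in male germ cells, and RPL3L is known from heart and skeletal muscle. The genes of 2 core subunits were also near the floor. Rpl24 had 160 counts and Rps10 531 counts over the 10 mice. Both, and Rpl36al, share exons on the same strand with another annotated gene, Gm28037, RPS10-NUDT3 and Gm49383, and each of those genes was listed at 0 counts. The part of this overlap in the low values was not tested. In all, 39 of the 86 genes share exonic bases with another gene, 23 of them with a gene other than a snoRNA or miRNA, among them Rpl12, Rpl15, Rpl18, Rpl28, Rpl31, Rpl35, Rps18, Rps25 and Rps28, which overlap a protein-coding gene on the opposite strand. The strand setting of the counting is not given in the sources used here, so those reads may come from either gene. The table also lists 382 pseudogene rows of cytosolic ribosomal proteins, 147 of them at 0 counts throughout, and the levels of genes with near-identical copies are uncertain.

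Rps27 and its intronless copy Rps27rt were the clearest case. In F3-612, Rps27 had 18.8 CPM and Rps27rt 63.2 CPM, and in every other mouse Rps27 was the higher of the pair. The lowest level of Rps27 among the other 9 mice was 77.8 CPM in F1-624, and its highest was 175 CPM in F1-622. Rps27rt lay between 11.4 CPM in P3-904 and 66.1 CPM in P3-612. The sum of the pair ran from 82.0 CPM in F3-612 to 211 CPM in F1-622, and Rps27rt made up 77.1% of it in F3-612, 42.8% in P3-612 and between 12.3% and 29.9% in the other 8 mice. Rps27l, which encodes the paralog RPS27-like and differs more in sequence, had 7.68 CPM in F3-612 and 8.55 to 17.6 CPM in the other mice. The values of Rps27 and Rps27rt below are therefore given with this limit.

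**Figure D1:**
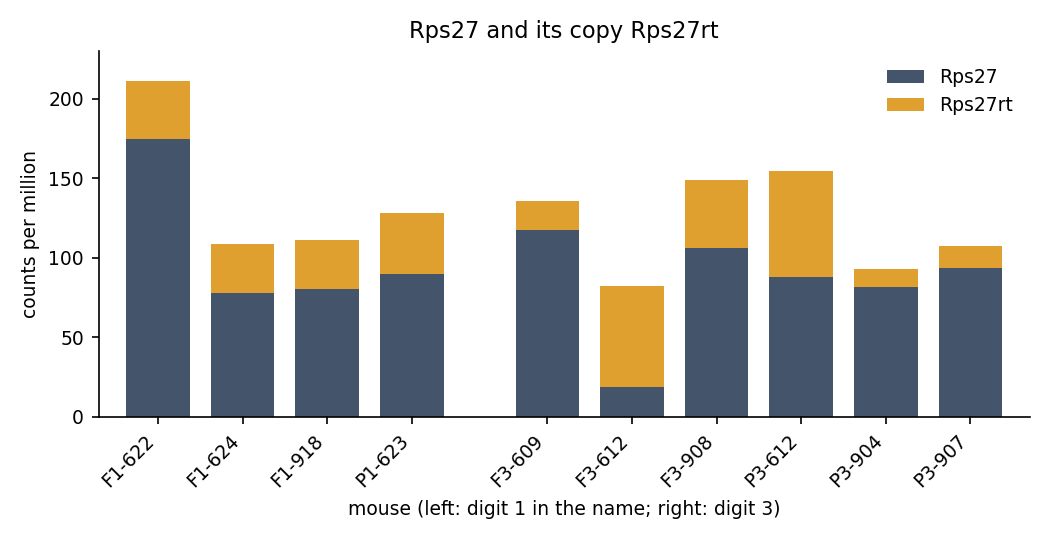
Level of Rps27 (dark) and Rps27rt (yellow), stacked, in CPM for each of the 10 mice, with digit 1 mice on the left. In F3-612 most of the sum was Rps27rt (77.1%), and in each of the other mice most of it was Rps27.

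The 86 genes together took between 0.851% and 1.74% of all gene counts in a mouse. In digit 1 mice the share was 1.74% in F1-622, 1.67% in P1-623, 1.35% in F1-918 and 1.17% in F1-624. In digit 3 mice it was 1.54% in P3-612, 1.22% in F3-908, 1.19% in P3-907, 0.885% in F3-609, 0.860% in F3-612 and 0.851% in P3-904. The mice of highest share therefore included FTY720 and placebo mice and both digits, and the 3 lowest were all digit 3 mice, of both treatments. The mean was 1.20% ± 0.326 (SD, n = 6) with FTY720 and 1.31% ± 0.367 (n = 4) with placebo, and 1.48% ± 0.270 (n = 4) in digit 1 against 1.09% ± 0.276 (n = 6) in digit 3 mice. Both pairs of groups overlapped.

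**Figure D2:**
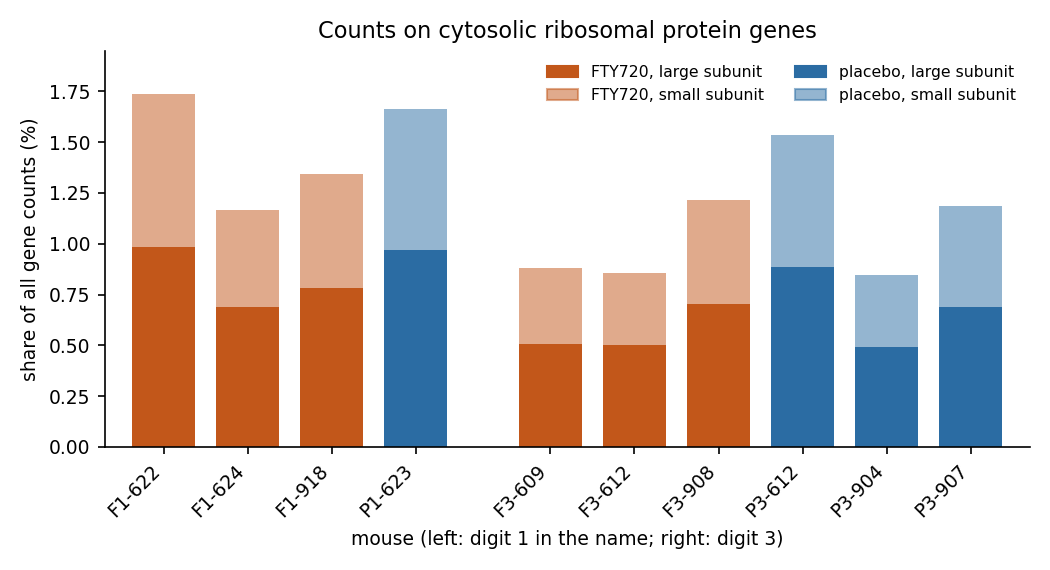
Share of all gene counts, in percent, on large subunit genes (full colour) and small subunit genes (pale, stacked) in each mouse. Bars are single mice, coloured by treatment, and the total runs from 0.851% in P3-904 to 1.74% in F1-622.

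The genes moved between mice almost as a block. Counts on large subunit genes divided by those on small subunit genes gave 1.31 to 1.44 over the 10 mice. Of the 82 tested genes, 48 had their highest level in F1-622, 25 in P1-623, 8 in P3-612 and 1 in F3-908. The lowest level fell in F3-612 for 31 genes, in P3-904 for 26 and in F3-609 for 25, and in no other mouse for any gene. Measured as log2 CPM relative to each gene's own mean, the median gene stood at 0.58 in F1-622, 0.53 in P1-623, 0.34 in P3-612 and 0.20 in F1-918. It stood at −0.56 in F3-612, −0.51 in P3-904 and −0.50 in F3-609. It stood between −0.02 and 0.0030 in the other 3 mice.

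**Figure D3:**
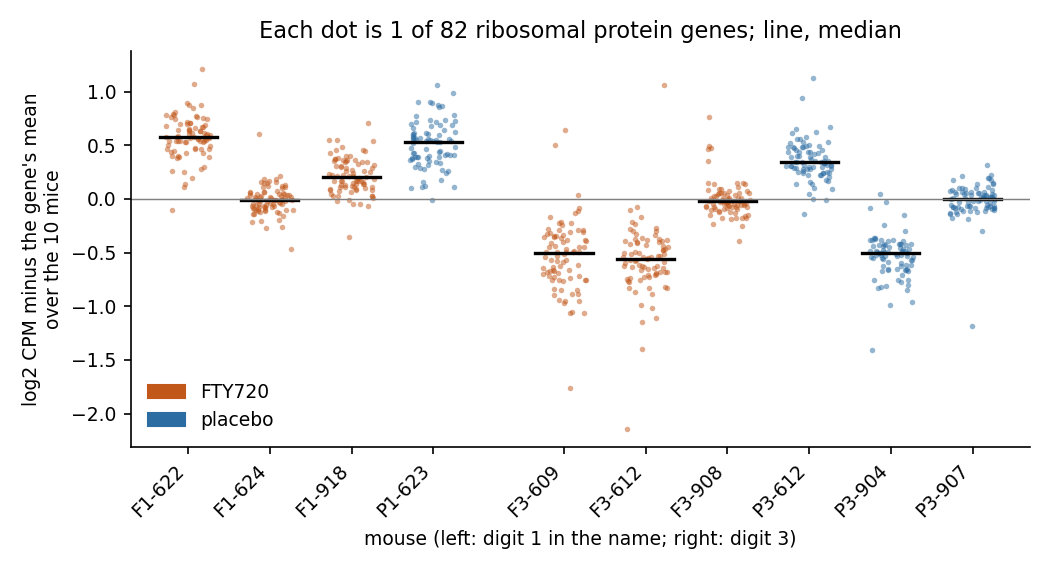
Log2 CPM of each of the 82 tested genes minus that gene's mean over the 10 mice, by mouse, with the black line at the median and colour for treatment. F1-622, P1-623 and P3-612 lay above 0 for nearly all genes, and F3-609, F3-612 and P3-904 lay below it.

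Other transcripts moved with the share from mouse to mouse. The 78 mitochondrial ribosomal protein genes took 0.263% to 0.265% of counts in P3-612 and F1-622, 0.251% in P1-623, and 0.179% to 0.186% in P3-904, F3-609 and F3-612. Other protein-coding genes under 2000 bases in length, without mitochondrial genome genes, took 7.47% to 7.83% in the first 3 mice and 4.78% to 4.92% in the last 3. The long nuclear RNA Malat1 was lowest in F1-622, at 604 CPM, and highest in P3-904, at 2472 CPM. Meg3, another long noncoding RNA, lay at 1482 CPM in F1-622 and at 3470 to 3784 CPM in F3-612, F3-609 and P3-904. Mitochondrial genome genes took 4.83% to 6.48% of counts, with the highest share in F3-609 and the lowest in F1-918. Pseudogene rows of ribosomal proteins took 0.0416% in F3-612 to 0.0862% in F1-622. The part of RNA quality or library content in these differences was not tested.

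The first comparison asked whether FTY720 changed the expression of these genes in the brain. Over all 10 mice, 0 of the 82 genes passed an unadjusted p under 0.05 in edgeR's quasi-likelihood test, and the smallest adjusted p over all genes was 0.9999. DESeq2 likewise passed 0 of 85 genes. Of 14784 tested protein-coding genes, 1.47% passed this p as lower and 1.14% as higher with FTY720. The fitted log2 fold change was negative for 72 of the 82 genes and positive for 10, with a median of −0.14 against 0.00 for all protein-coding genes. It was −0.13 for the large and −0.15 for the small subunit. None of the 82 genes was lower in all FTY720 mice than in every placebo mouse, as 0.352% of protein-coding genes were. Leaving out P1-623, the only placebo mouse with digit 1, turned the median to 0.04, and leaving out P3-904 gave −0.30.

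The genes at the ends of this comparison had wide errors. Rps10, whose protein lies at the mRNA entry side of the small subunit, had the most negative log2 fold change (−0.39, SE 0.20). Its levels were 2.15 to 3.48 CPM with FTY720 and 2.94, 3.63, 3.86 and 4.52 CPM with placebo, and the groups overlapped. Its 2-sided exact permutation p over the 210 splits of 6 against 4 mice was 0.0429, the only one of the 82 under 0.05 when 3.88% of protein-coding genes were. Rpl36 (−0.37, SE 0.35), Rpl35a (−0.35, SE 0.33), Rpl38 (−0.34, SE 0.38) and Rpl8 (−0.34, SE 0.31) followed. At the other end stood Rpl24 (0.51, SE 0.32), Rpl21 (0.24, SE 0.38), Rps27rt (0.20, SE 0.45), Rps27 (0.12, SE 0.37) and Rpl10 (0.03, SE 0.21). None of these 10 genes passed the unadjusted p in edgeR's test.

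Rps6, with a fold change nearer to 0 than the median of the members, shows how far the treatment groups overlapped. Its levels with FTY720 were 374 CPM in F1-622, 265 in F1-918, 250 in F3-908, 246 in F1-624, 185 in F3-609 and 184 in F3-612. With placebo they were 316 CPM in P1-623, 295 in P3-612, 227 in P3-907 and 181 in P3-904. The groups covered nearly the same range. The means were 251 ± 69.8 (SD, n = 6) and 255 ± 62.2 CPM (n = 4), with a log2 fold change of −0.02.

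With the digit as a covariate the treatment comparison read differently. Then 20 of the 82 genes (8 small and 12 large subunit genes) passed the unadjusted p as lower and 0 as higher, with a median log2 fold change of −0.29, while 8.45% of protein-coding genes passed as lower. No gene of the table reached an adjusted p under 0.05 in that fit, where the smallest was 0.35. With trends over GC content and gene length removed as well, 9 of the 82 genes passed as lower, beside 3.06% of protein-coding genes, and the median was −0.19. With those trends removed and no covariate, the median was −0.04.

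In the 6 digit 3 mice alone, 3 per treatment, 4 of the 82 genes passed the unadjusted p as lower with FTY720 and 0 as higher, when 5% of 14734 protein-coding genes passed as lower. Their share was thus near the background. The 4 were Rpl35a (log2 fold change −0.83, SE 0.33), Rps15 (−0.64, SE 0.27), Rps9 (−0.58, SE 0.24) and Rps3 (−0.53, SE 0.24). RPS3 and RPS15 sit in the head of the small subunit and RPS9 in its body. Rps9 and Rps3 were named after their values were seen. For 80 of the 82 genes the fold change was negative, with a median of −0.33 against −0.01 for protein-coding genes, and Rpl24 (0.85, SE 0.41) and Rps27rt (0.45, SE 0.66) were the 2 positive ones. An exact test of 3 against 3 mice cannot reach a p of 0.05, so none is given. No gene tested in this fit reached an adjusted p under 0.05 (smallest 0.65).

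Single mice decided this comparison. Rpl35a had 29.2, 30.8 and 59.1 CPM in the FTY720 mice F3-609, F3-612 and F3-908, and 43.1, 71.2 and 97.0 CPM in the placebo mice P3-904, P3-907 and P3-612. Rps15 had 101, 119 and 185 CPM and 142, 212 and 277 CPM in the same order. In both genes the placebo mouse P3-904 lay below the FTY720 mouse F3-908, and the groups overlapped. Without P3-904, 59 of the 82 genes passed as lower, beside 13.7% of protein-coding genes, with a median of −0.52. Without F3-908, 30 passed as lower (median −0.52), beside 7.26%. Without P3-612, 0 passed as lower and 1 as higher (median −0.11), and without F3-609, F3-612 or P3-907 again 0 passed as lower, while 2 passed as higher without F3-612. With no filter on low counts 46 of 85 passed as lower, beside 7.05% of protein-coding genes. Of the 46, 8 had an adjusted p under 0.05, beside 107 lower and 27 higher of 34281 genes in that fit. DESeq2 passed 11 of 85 as lower, beside 4.22%, with none under that adjusted p.

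Cell-type markers also differed between the treatments in these mice, and their part was not tested. Of 8 oligodendrocyte markers 5 were lower with FTY720 at an unadjusted p under 0.05, in all mice and in the digit 3 mice. Their summed level in digit 3 mice was 5567 to 5716 CPM with FTY720 and 6453 to 7345 CPM with placebo. Of 7 endothelial markers 4 were higher in digit 3 mice, and their summed level was 190 to 248 against 152 to 166 CPM. Of 9 microglia markers 3 were lower in digit 3 mice and all 9 had negative log2 fold changes (median −0.45). Their summed level was 265 to 315 CPM with FTY720 and 315 to 391 CPM with placebo. No marker of these 3 lists was at 0 counts in any group. Of the hindbrain Hox genes 3 of 5 tested, of 7 neuron markers 2 and of 14 forebrain markers 1 were also lower with FTY720 in digit 3 mice. Beside these counts, 5% of protein-coding genes were lower and 2.96% higher in digit 3 mice, and 1.47% were lower over all mice. Rows known to carry ribosomal RNA reads were lower with FTY720 in all 10 mice, at −1.25 (SE 0.32) for CT010467.1 and −1.37 (SE 0.38) for Gm23935 on the log2 scale.

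The second comparison set digit 3 against digit 1 mice, with treatment as a covariate. Of the 82 genes, 55 were lower in digit 3 mice at an adjusted p under 0.05 over all genes (edgeR's quasi-likelihood test, Benjamini-Hochberg) and 0 were higher. Of all 17665 genes tested, 14.4% were called lower and 13.9% higher. The log2 fold change was negative for 80 of the 82 genes, with a median of −0.60 (quartiles −0.74 and −0.46) against −0.03 for all protein-coding genes. Both subunits had about the same median, −0.60 for 47 large subunit genes, of which 34 were called lower, and −0.61 for 33 small subunit genes, of which 19 were. The 2 other genes called were Rps19bp1 and Rpl7l1, which encode no subunit. In the FTY720 mice alone, 3 per digit, 48 of the 82 genes were called lower with a median of −0.63, beside 9.19% of all genes tested there. Of 7 rows that track RNA quality and library content, the long noncoding RNAs Neat1 (log2 fold change 0.79, SE 0.11, adjusted p = 0.00053, edgeR), Malat1 (0.96, SE 0.23, adjusted p = 0.0100) and Meg3 (0.55, SE 0.16, adjusted p = 0.026) were higher in digit 3 mice and none was lower, and their part in the decrease was not tested.

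The levels behind these calls overlapped. Only 2 of the 82 genes, Rpl21 and Rpl7l1, were lower in every digit 3 mouse than in every digit 1 mouse, while 7.31% of protein-coding genes were. Rpl7l1 had 41.4 to 44.7 CPM in digit 1 and 33.1 to 40.3 CPM in digit 3 mice (log2 fold change −0.26, SE 0.09). Rpl21, which encodes a large subunit protein, had 62.3 to 69.2 CPM in digit 1 mice, and 19.2, 21.9, 25.8, 34.6, 49.6 and 58.9 CPM in digit 3 mice (−0.89, SE 0.28, adjusted p = 0.031, edgeR). In 78 of the 82 genes P3-612, which has digit 3, stood above F1-624, which has digit 1.

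The largest decreases were in Rps15 (log2 fold change −1.04, SE 0.20), Rps28 (−1.03, SE 0.30), Rpl41 (−1.002, SE 0.24), Rpl38 (−0.99, SE 0.27) and Rps19 (−0.97, SE 0.20), with adjusted p from 0.0035 to 0.024 (edgeR). RPS15 and RPS28 are small subunit proteins near the decoding site and the mRNA exit, and RPS19, needed for maturation of the small subunit rRNA, is the protein most often mutated in Diamond-Blackfan anaemia. RPL38 is a large subunit protein whose loss in mice alters the axial skeleton. Rps15 had 226, 307, 334 and 393 CPM in digit 1 mice and 101, 119, 142, 185, 212 and 277 CPM in digit 3 mice. Of the digit 3 mice only P3-612, at 277 CPM, reached into the range of digit 1. The means were 315 ± 69.4 (SD, n = 4) and 173 ± 65.9 CPM (n = 6), with a 2-sided exact permutation p of 0.0238, when the smallest that 210 splits allow is 0.0048.

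Rps28 and Rps19 overlapped to different extents. Rps28 had 28.8, 42.0, 57.4 and 64.4 CPM in digit 1 mice and 11.7, 16.6, 18.2, 32.8, 34.2 and 44.7 CPM in digit 3 mice, of which the last 3 lay above the lowest digit 1 mouse. Rps19 had 116, 153, 180 and 208 CPM against 57.9, 67.9, 69.8, 98.5, 112 and 146 CPM, of which only the last reached into the range of digit 1. In both genes the mice F3-609, F3-612 and P3-904 were lowest and P1-623 was highest. Their exact permutation p-values were 0.0619 and 0.0238, of the 82 computed. In 37 of the 82 genes this p was under 0.05, as in 34% of protein-coding genes.

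Least changed were Rpl24 (log2 fold change 0.16, SE 0.33), Rps27rt (0.11, SE 0.45), Rpl22l1 (−0.09, SE 0.15), Rps27l (−0.23, SE 0.21) and Rps15a (−0.23, SE 0.11), none of which passed the test. Of these, Rps27rt, Rpl22l1 and Rps27l encode second versions of core proteins, and RPL22L1 is the paralog of RPL22 that is held down where RPL22 is present. Rpl22l1 had 34.5, 39.6, 40.3 and 52.6 CPM in digit 1 and 30.8 to 49.9 CPM in digit 3 mice, and its ranges nearly coincided. Rpl22 itself had a log2 fold change of −0.30 (SE 0.14) that also missed the adjusted threshold. Rps15a had 145 to 208 CPM in digit 1 and 130 to 163 CPM in digit 3 mice.

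Counts by single mice set how many genes were called. Leaving out P1-623, the only digit 1 placebo mouse, left 13 of 83 genes called, beside 7.33% of all genes called lower. Leaving out F3-609 left 18 (beside 7.84%) and leaving out F3-612 left 26 (9.73%). Leaving out F1-622 left 31 (12%) and leaving out F1-918 left 36 (9.77%). Leaving out P3-612 gave 69, beside 17.5% of all genes. When each of the 10 mice was left out in turn, every member called was lower in digit 3 mice and the median stayed between −0.72, without F3-908, and −0.47, without F1-622. Without the treatment covariate 29 genes were called, beside 9.88% of all genes, with a median of −0.52. The interaction of treatment and digit, which rests on P1-623 alone for digit 1 placebo, had no member at an adjusted p under 0.05 (median −0.09). At an unadjusted p under 0.05 it had 0 members. The median was 0.14 without P3-612 and −0.31 without F3-908, so its sign depended on single mice.

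**Figure D4:**
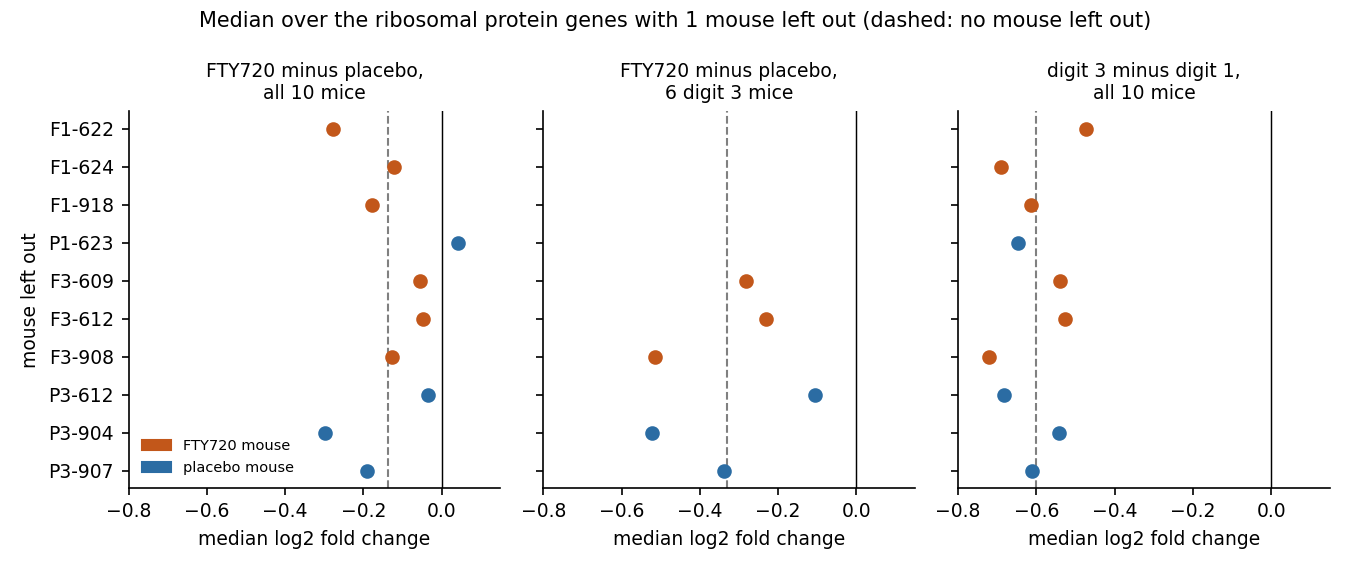
Median log2 fold change over the tested ribosomal protein genes (horizontal axis) in 3 comparisons when the mouse on the vertical axis is left out, with the dashed line at the value from all mice. For FTY720 minus placebo the medians run from −0.30 to 0.04 in all mice and from −0.52 to −0.11 in digit 3 mice, and for digit 3 minus digit 1 from −0.72 to −0.47.

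Gene length and GC content went with the fold change over all genes, and the ribosomal protein genes are short. Their median gene length was 1730 bases against 4409 bases for tested protein-coding genes, and their median GC content 51.7% against 50.4%. Between digit 3 and digit 1 mice, other protein-coding genes under 1000 bases had a median log2 fold change of −0.45, those of 1000 to 2000 bases −0.31, those of 2000 to 3000 bases −0.19 and those from 6000 bases on 0.15. The ribosomal protein genes in the first 3 of these classes had medians of −0.60, −0.63 and −0.47, lower than the other genes of each class. By GC content, other genes had medians of 0.22 below 45%, 0.05 from 45% to 50%, −0.12 from 50% to 55% and −0.30 above that, and the ribosomal protein genes −0.45, −0.45, −0.63 and −0.75. Over the 82 genes the Spearman correlation of the fold change was 0.10 with gene length and −0.48 with GC content, a description over genes that share the same libraries.

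**Figure D5:**
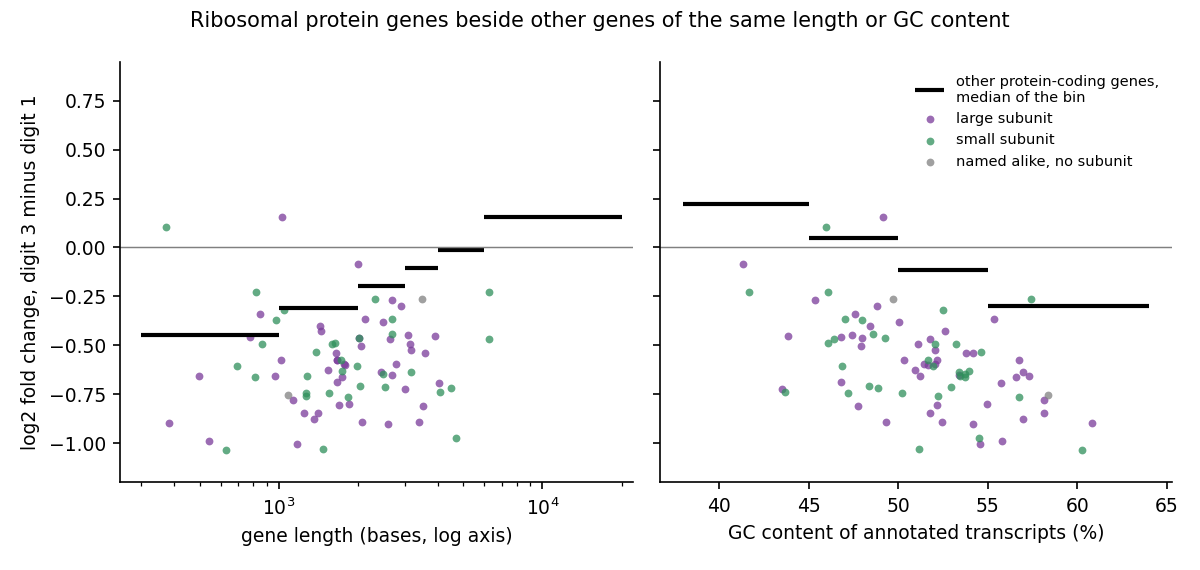
Log2 fold change, digit 3 minus digit 1, of each tested ribosomal protein gene against its gene length in bases (left, log axis) and the GC content of its annotated transcripts in percent (right), with black bars for the median of other protein-coding genes in each class. The outermost classes are open and their bars end at the drawn limits. The ribosomal protein genes lay mostly below the bar of their class.

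Removing these trends left more of the ribosomal protein genes called between the digits and their median nearer to 0. With the trend over gene length removed, 61 of the 82 genes were called lower in digit 3 mice and 0 higher, beside 20.3% of all genes called lower, and the median was −0.53 against −0.10 for protein-coding genes. The split over all genes then moved from 2462 higher and 2548 lower to 2121 higher and 3579 lower. With trends over GC content and length removed together, 62 genes were called lower, beside 16.5% of all genes, and the median was −0.50 against −0.09, with 1730 genes of the table higher and 2921 lower. The correlation of the fold change with GC content over the 82 genes was then 0.04. Rps15, the gene with the highest GC content but one among those tested, went from −1.04 to −0.65, and Rps20, with a GC content of 43.7%, from −0.74 to −0.94. Genes under 1000 bases other than ribosomal protein genes still had a median of −0.29 after this step, so the correction left part of the trend in the shortest class. In the digit 3 mice, removing both trends moved the median of FTY720 against placebo from −0.33 to −0.22. Then 3 of the 82 genes passed the unadjusted p as lower and 1 as higher, beside 2.89% and 1.98% of protein-coding genes, which is near those shares.

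Fau and Rack1 are subunit genes outside the name rule, and both had negative log2 fold changes in all 3 comparisons. Fau, which encodes RPS30 fused to a ubiquitin-like protein, was lower in digit 3 mice (log2 fold change −1.02, SE 0.22, adjusted p = 0.0065, edgeR) with 142 to 273 CPM in digit 1 and 70.7 to 202 CPM in digit 3 mice. Rack1, a scaffold on the small subunit, had −0.37 (SE 0.14) and did not pass. In the digit 3 mice Fau (−0.72, SE 0.31) was lower with FTY720 at an unadjusted p under 0.05, and over all mice neither gene was.

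The other lists of the translation apparatus had medians nearer to 0 between the digits. Of 37 translation factors 14 were lower and 1 was higher in digit 3 mice, with a median log2 fold change of −0.28, and the lower ones included Eif3b (−0.46, SE 0.09), Eef2 (−0.38, SE 0.08), Eef1a2 (−0.46, SE 0.10) and Eif3d (−0.53, SE 0.12), the initiation factor 3 subunits and the factors of elongation. The mitochondrial ribosomal protein genes, 77 of 78 of which were tested, had 20 lower, 0 higher and a median of −0.32, with Mrpl38 (−0.51, SE 0.11), Mrpl54 (−0.75, SE 0.17), Mrps26 (−0.73, SE 0.18) and Mrps12 (−0.82, SE 0.20) first by p. Of 34 ribosome biogenesis genes 10 were lower and 1 higher (median −0.18), led by Bysl (−0.71, SE 0.12), Bop1 (−0.55, SE 0.11), Rrp1 (−0.53, SE 0.11) and Gar1 (−0.57, SE 0.17), which act in small and large subunit assembly and in rRNA modification. These shares stand beside the 14.4% of all genes called lower.

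Calls between the digits in the list of mTORC1 and TOP mRNA regulators stood near the shares of all genes. Of 19 genes of mTORC1 signalling and TOP mRNA regulation, 3 were higher and 2 lower in digit 3 mice, with a median of 0.04. The kinase genes Rps6ka1 (log2 fold change 0.98, SE 0.10), Rps6ka3 (0.73, SE 0.13) and Rps6kb1 (0.44, SE 0.09), of which the last encodes S6 kinase 1, were higher. Mycn (−0.74, SE 0.19) and Eif4ebp1 (−0.78, SE 0.23), which encodes the translational repressor 4E-BP1, were lower. With FTY720 over all mice, 0 of these 19 genes, 0 of 34 biogenesis genes, 0 of 77 mitochondrial ribosomal protein genes and 1 of 37 translation factors, Eif5b (0.32, SE 0.10), passed an unadjusted p under 0.05. With the digit as a covariate, 17 of 77 mitochondrial ribosomal protein genes passed as lower and 0 as higher. Of 37 translation factors 5 passed as lower and 2 as higher. Beside these counts, 1249 of 14784 protein-coding genes (8.45%) were lower and 834 higher in that fit. Of the biogenesis genes 2 were then lower and 0 higher, and of the 19 regulators 1 was lower and 2 were higher. In the digit 3 mice 9 of the 77 mitochondrial ribosomal protein genes passed as lower, beside the 5% of protein-coding genes. In those mice 1 biogenesis gene passed in each direction, and 1 translation factor and 1 of the regulators passed as higher. Beside these, 2.96% of protein-coding genes passed as higher there.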

How the data were processed

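Brain RNA from 10 mice was sequenced by the authors, and per the labels reads were handled with CASAVA 1.8, fastp, HISAT2 2.0.5 and featureCounts 1.5.0-p3 on GRCm38 (mm10). DESeq2 1.20.0 was also named. The authors deposited whole read counts per gene and FPKM values, which follow counts divided by the gene length in the table, for 54532 genes. The strand setting was not given in the sources used here.

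Counts were tested with edgeR 4.0.16 (TMM scaling, filterByExpr, quasi-likelihood F test, Benjamini-Hochberg) over all genes in R 4.3.3. CPM used effective library sizes, and log2 CPM for the exact permutation tests had a prior count of 2. Comparisons were FTY720 against placebo, the same in digit 3 mice, digit 3 against digit 1 with treatment as covariate, and their interaction. Trends of the log counts over gene length or GC content (GENCODE M21 transcripts, spline with 5 degrees of freedom) entered as offsets. Alternatives were RLE and upper-quartile scaling, other filters (none, or 10 counts in every mouse), DESeq2 1.42.0, limma 3.58.1 on log2(FPKM + 0.1) and log2(FPKM + 1), covariates and leaving out each mouse. Trends over mRNA length were added after seeing the data. The scripts were tested on simulated data.

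The ribosomal protein genes, gene lists and tests were chosen with earlier results of these data known. Named were the 5 genes of each subunit highest in FPKM, the 5 largest changes each way per comparison, paralogs, untested genes, Fau, Rack1, and up to 4 called genes per list; 1 item of this rule is not reported here. Each library came from 1 mouse. P-values cover the spread between these mice only. Protein sequences were not used here.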

Additional observations from a re-analysis of the deposited data

Results flagged for a closer look

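Within a group, 1 mouse stood apart from the rest in 5 of the 108 sets of values examined by Dixon's criterion at the 95% level, which chance exceeds in about 1 of 20 sets. F1-622 was the high mouse in 4 of them. Among FTY720 mice it had 52.6 CPM of Rpl22l1 (others 34.5 to 40.8), 208 CPM of Rps15a (others 130 to 153) and 551 CPM of Rps3a1 (others 285 to 378). Among digit 1 mice it had 175 CPM of Rps27 (others 77.8 to 89.8). In the digit 3 mice F3-612 was the low one, with 18.8 CPM of Rps27 (others 81.4 to 118), the mouse in which Rps27rt made up most of the pair.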

How the results depend on the processing

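For FTY720 against placebo, 0 genes passed the unadjusted p, as under the scaling, filter, trend and leading-digit alternatives, DESeq2 and limma on log2(FPKM + 0.1), against 1 with limma on log2(FPKM + 1). With digit as a covariate 20 passed as lower, and 15, 9 and 14 did with length, with GC and length, and with mRNA GC and length trends removed as well. Of 14784 protein-coding genes, 1249, 1199, 452 and 559 passed as lower in these fits, in the same order. Leaving out each mouse gave 0 to 1. In digit 3 mice 4 genes passed, all lower, against 46 with no filter and 11 with DESeq2, also all lower. There 2 passed with either limma fit (1 higher, 1 lower), beside 316 to 318 higher and 672 to 684 lower of 14734 protein-coding genes. With the length trend removed 7 passed (1 higher, 6 lower), beside 468 higher and 956 lower of the protein-coding genes. With the mRNA length trend removed 9 passed (1 higher, 8 lower), beside 547 higher and 1079 lower. Leaving out each mouse gave 0 to 59, of which the 2 without F3-612 and the 1 without P3-612 were higher. Between digits the 55 calls became 29 without the treatment covariate, and 13 to 69 when each mouse was left out. The cause of these moves was not tested. The mean share of counts on the genes was 1.25%, and 2.69% as a share of summed FPKM, where short genes weigh more by construction.

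Directions turned for some genes that had not passed the test. For FTY720 against placebo Rps27 gave −0.14 and −0.13 with the 2 limma fits, Rpl21 gave −0.0039 and −0.0050 with the digit covariate without and with GC and length trends, and Rpl10 gave −0.11, −0.0053, −0.090 and −0.070 with that covariate alone and with length, GC and length, and mRNA trends. In digit 3 mice Rps3a1 gave 0.091 (length), 0.0066 (GC and length), 0.10 (mRNA length) and 0.016 (mRNA GC and length), and Rpl21 gave 0.0025 (length), 0.059 (mRNA length) and 0.014 (mRNA GC and length). Between digits Rps27rt gave −0.15 and −0.15 with limma. With each mouse left out, the ranges were −0.12 to 0.13 (Rpl10), −0.13 to 0.33 (Rps27) and −0.081 to 0.82 (Rps27rt) for FTY720 in all mice. They were −0.64 to 0.30 (Rpl21), −0.23 to 0.15 (Rps3a1) and −0.11 to 0.035 (Rps15a) in digit 3 mice. Between digits they were −0.16 to 0.036 (Rpl22l1), −0.28 to 0.34 (Rps27rt) and −2.2e-05 to 0.45 (Rpl24). No paired analysis was possible because the groups share only 1 mouse number, 612.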
